A study of Mus musculus with 30 samples.

Results

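Newborn stomach without estrogen-related receptor gamma (ERRγ) was compared with wild-type newborn stomach on Affymetrix MOE430A arrays, which measure transcripts with sets of short probes near the 3' end. The comparison took the 3 arrays titled as knockout stomach and the 3 titled as wildtype stomach, 6 of the 30 arrays of the study, and used all 22626 probe sets that are not array controls. The other 24 arrays held brain, kidney, liver and salivary tissue of the same genotypes, with 3 arrays in each group. Both genotypes were neonatal mice of a mixed SV129/C57BL/6 background with sex given as unknown, fed standard chow with water freely available, and total RNA was taken with Trizol. The labels name no promoter, Cre driver or treatment and do not describe the deleted allele. Whether each array of a group stands for its own animal is not labelled, so p-values speak of the spread among these 3 samples alone, part of which may be technical.

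Esrrg encodes ERRγ, an orphan receptor of the nuclear receptor family that acts without a known natural ligand and drives genes of mitochondrial energy production in tissues of high energy demand. Gastric parietal cells, which are packed with mitochondria, secrete acid through a pump that exchanges protons for potassium. That potassium is returned to the lumen by an apical channel, and the bicarbonate left behind leaves through a basolateral exchanger. The newborn mouse stomach also holds a squamous forestomach, chief and mucous cells, muscle and, after suckling, milk.

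The 6 arrays differed in more than genotype. The gap between the 3' and 5' control probe sets of Gapdh and Actb, which widens as RNA degrades, was 1.94, 2.58 and 1.75 on the log2 scale on the wild-type arrays (replicates 1, 2 and 3) and 3.61, 3.09 and 2.96 on the null arrays. The groups did not overlap, with means of 2.09 ± 0.43 and 3.22 ± 0.34 (SD, n = 3) and a difference of 1.13. A two-sided exact permutation test gave p = 0.1, the smallest that 3 against 3 arrays can give. Alb, which encodes serum albumin of hepatocytes, read 5.93, 10.25 and 11.90 on the wild-type and 6.81, 6.19 and 7.06 on the null arrays. It was high on wild-type replicates 2 and 3, while wild-type replicate 1 lay below every null array, so the groups overlapped (-2.67 ± 1.21, SE; limma adjusted p = 0.136). Median signals were alike, 5.94 to 5.99, and Xist, transcribed from the inactive X chromosome, was low on wild-type replicate 3 and null replicate 1 only, so each group held RNA of more than 1 source. Across probe sets the correlation was 0.967 to 0.975 among wild-type, 0.960 to 0.969 among null and 0.885 to 0.953 between arrays of different genotype, and null replicate 2 was the null array nearest to wild-type. The stomach genes Pga5 (12.33, 12.53 and 12.41 on the wild-type and 12.75, 12.73 and 12.61 on the null arrays) and Gkn2 (12.35, 12.54 and 12.51 on the wild-type and 12.71, 12.89 and 12.66 on the null arrays) were bright on all 6 arrays.

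**Figure D1:**
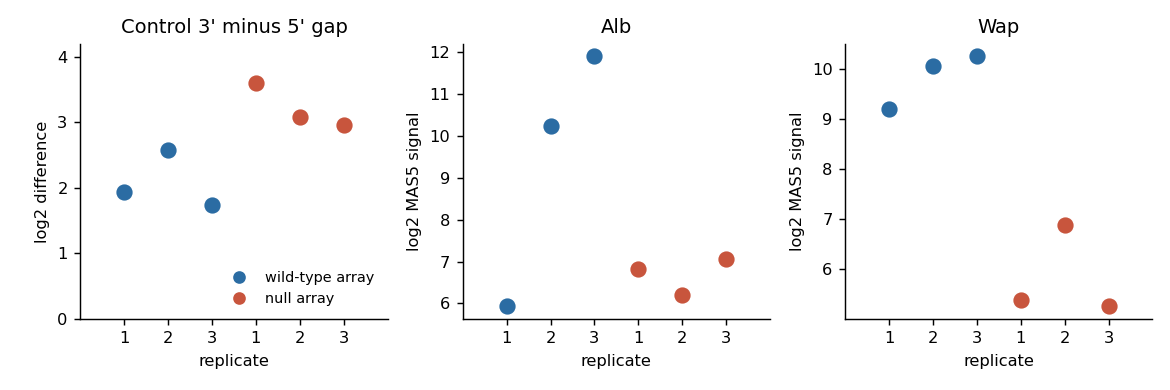
Values per stomach array of the control 3' minus 5' gap (log2 difference), of Alb and of the milk gene Wap (log2 MAS5 signal), with wild-type arrays in blue and null arrays in red, each in the order of replicates 1 to 3. The gap and Wap separate the genotypes, while Alb is high on wild-type replicates 2 and 3 only.

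Values were log2 MAS5 signals as deposited. Tests covered the 13576 probe sets with a 6-array mean of at least 5.35, the 40th percentile, and were made with limma, and a call is a Benjamini-Hochberg adjusted p under 0.05. Each difference is the null mean less the wild-type mean (log2), with its standard error. Of the tested probe sets 23.5% were called, 11.2% higher and 12.2% lower in null stomach. The 2 groups of 3 arrays were fully separated for 42.8%, with the null arrays above for 22.4% and below for 20.4%. Counted as 1 probe set a gene, the brightest, 22.1% of 8505 genes were called, 10.1% higher and 12.1% lower, and list counts below stand against these shares. The median difference over those genes was 0.02.

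Many of these calls were lost when single arrays were left out or when the gap or Alb entered the fit. The 6 arrays gave 3186 called probe sets (1527 higher, 1659 lower), and 5271 had an unadjusted p under 0.05. With each array left out in turn 1461 to 3601 were called, the lowest without wild-type replicate 3 and the highest without null replicate 2, and 1187 (490 higher, 697 lower) were called in the same direction in the fit of 6 arrays and all 6 smaller ones. With Alb as a covariate 504 passed, with the Gapdh gap as a covariate 2 passed, and without the 2 wild-type arrays of Alb above 10 there were 28. The Gapdh gap separated the genotypes, and the last of these fits kept wild-type replicate 1 as its only wild-type array. Both counts could therefore fall through lost power alone and do not show that a call rests on the gap or on Alb. Of 339 genes with several called probe sets, 287 had them all in 1 direction and 52 in opposite directions. Unless said otherwise, a gene named below as having risen or fallen was also called without each array in turn, in every such fit in which it passed the filter. The part of RNA degradation in these results was not tested beyond these fits, since the gap and the genotype moved together. In bulk tissue, fewer cells of a type and less RNA per cell cannot be told apart.

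Genes of acid secretion were lower in null stomach, and the pump subunits by the most. Atp4a, the catalytic subunit of the gastric proton pump, read 10.57, 10.36 and 10.46 on the wild-type and 5.58, 5.33 and 5.37 on the null arrays. Atp4b, its glycosylated partner subunit, read 11.03, 11.29 and 11.26 on the wild-type and 6.15, 6.40 and 6.60 on the null arrays. The null arrays lay far below the wild-type arrays for both, with differences of -5.04 ± 0.12 (limma adjusted p = 2.31e-07) and -4.81 ± 0.14 (limma adjusted p = 5.87e-07). These were the 2 probe sets called with the Gapdh gap as a covariate, at -4.96 (limma adjusted p = 0.00415) and -4.72 (limma adjusted p = 0.00846).

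The membrane proteins that serve the pump also fell, by less. Slc4a2, the basolateral exchanger that removes bicarbonate, read 8.50, 8.26 and 8.26 on the wild-type and 6.95, 6.77 and 6.94 on the null arrays, a difference of -1.45 ± 0.13 (limma adjusted p = 0.000771). Kcnq1, the pore of the apical potassium channel, read 7.10, 7.07 and 7.17 on the wild-type and 5.75, 5.75 and 6.05 on the null arrays, a difference of -1.26 ± 0.14 (limma adjusted p = 0.00139). Neither gene's groups overlapped, and the null values of Kcnq1 lay near the level of the filter. Kcne2, the subunit that opens Kcnq1 at rest, read 7.14, 6.75 and 6.64 on the wild-type and 3.46, 1.08 and 4.73 on the null arrays, so all null values lay under the filter and differed widely among themselves. Tested without the filter, under which 11.9% of 22626 probe sets were called, its difference was -3.75 ± 0.80 (limma adjusted p = 0.0263). Its null level is only bounded.

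The remaining transporters of this list showed smaller differences. Car2, the carbonic anhydrase that supplies protons, read 11.56, 11.27 and 11.37 on the wild-type and 10.12, 11.02 and 10.53 on the null arrays, a difference of -0.84 ± 0.20 (limma adjusted p = 0.0185). The null arrays were lower without overlap, but the call was lost on leaving out wild-type replicate 1, wild-type replicate 3 or null replicate 3, and over the 6 such fits the difference ran from -1.07 to -0.62. Slc12a2, the basolateral sodium-potassium-chloride cotransporter, was called higher at its brightest probe set (0.55 ± 0.17, limma adjusted p = 0.0422) and lost that call without any of wild-type replicates 1 to 3 or null replicates 1 and 3 (0.45 to 0.75). Another of its probe sets rose by more (1.38 ± 0.26, limma adjusted p = 0.00896) and held in all 6 such fits, and the other was called at 0.96 ± 0.29 but not with any of wild-type replicates 2 and 3 and null replicates 1 and 3 left out (0.79 to 1.31). The potassium channel gene Kcnj15 (-0.48 ± 0.19) and the water channel gene Aqp4 (-0.28 ± 0.22) did not pass. Of the 8 tested members 5 were called lower and 1 higher, with a median of -1.05. Kcne2, Kcnj10, Slc26a7 and Cftr lay under the filter.

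**Figure D2:**
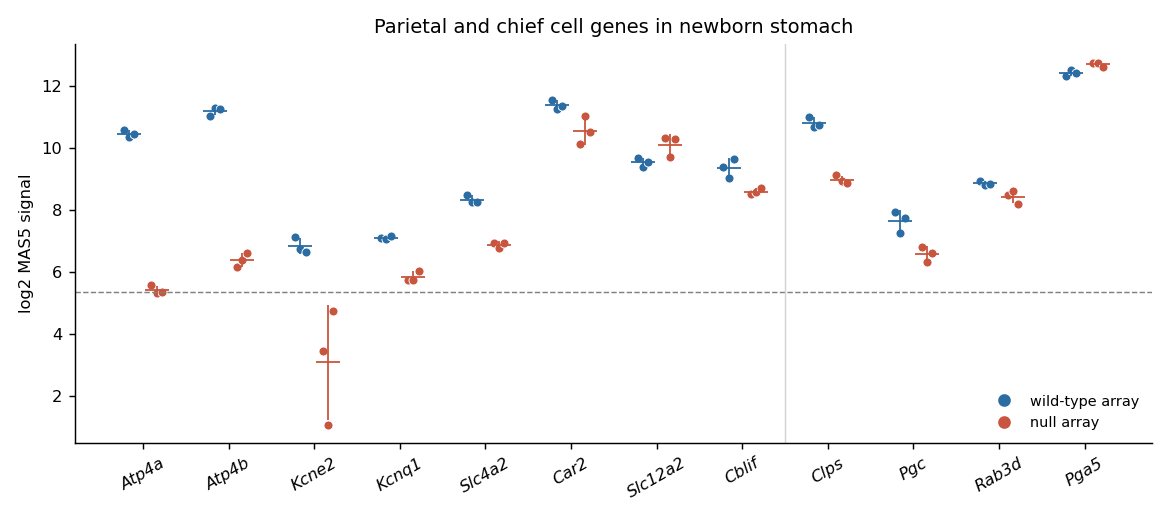
Log2 MAS5 signals of parietal cell genes (left of the vertical line) and chief cell genes (right; Cblif belongs to both lists) on each wild-type (blue) and null (red) stomach array, with horizontal marks for means, vertical bars for SD (n = 3) and a dashed line at the filter level of 5.35. Atp4a and Atp4b fall from above 10 to between 5.33 and 6.60, while Pga5 stays above 12 in both genotypes.

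Promoter sequence was taken from RefSeq on build GRCm38.p6 for the 4 members of this list with the largest falls, of which 3 had an entry (Atp4a, Kcne2 and Slc4a2). The 250 bases before each start were searched on both strands for AAGGTCA, the element bound by estrogen-related receptors, for AGGTCA, the nuclear receptor half-site that lies inside it, for GATAA, bound by GATA factors, and for TATAA, the TATA box, whose TTATAA form matches on both strands. AAGGTCA occurred in 4.08% of all 32851 such windows, AGGTCA in 14.02%, GATAA in 22.6% and TATAA in 22.8%. Windows are shown 5′ to 3′ on the gene's strand, with matches in capitals, because these genes had the largest falls among the acid secretion genes. The Atp4a window at chr7:30711959-30712208 held none of the 4 motifs. Of the Kcne2 starts, the window at chr16:92292139-92292388 held none and that at chr16:92295366-92295615 held GATAA and TATAA. Of the Slc4a2 starts, the window at chr5:24424982-24425231 held none and that at chr5:24425594-24425843 held AGGTCA, from 7 to 2 bases before the start.
Atp4a: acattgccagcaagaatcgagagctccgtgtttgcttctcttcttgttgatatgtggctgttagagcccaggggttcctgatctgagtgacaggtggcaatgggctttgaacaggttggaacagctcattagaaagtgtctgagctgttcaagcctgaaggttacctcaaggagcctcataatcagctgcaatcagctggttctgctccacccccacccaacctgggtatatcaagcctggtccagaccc
Kcne2: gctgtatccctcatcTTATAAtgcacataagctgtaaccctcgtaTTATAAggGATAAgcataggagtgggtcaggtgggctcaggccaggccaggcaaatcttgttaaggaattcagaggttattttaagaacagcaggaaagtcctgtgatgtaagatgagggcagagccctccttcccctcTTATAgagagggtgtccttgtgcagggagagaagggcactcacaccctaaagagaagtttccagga
Slc4a2: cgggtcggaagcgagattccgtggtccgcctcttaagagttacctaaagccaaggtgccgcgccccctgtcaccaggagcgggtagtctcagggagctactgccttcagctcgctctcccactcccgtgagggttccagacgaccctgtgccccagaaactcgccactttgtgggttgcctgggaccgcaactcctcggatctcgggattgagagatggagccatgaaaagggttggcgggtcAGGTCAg
All of these lie on the plus strand. Over all tested genes' windows AAGGTCA occurred in 2.88%, against 2.64% for genes called higher and 2.63% for genes called lower, and AGGTCA in 11.3%, 10.9% and 11.1%. GATAA occurred in 14.8% of tested genes' windows, 13.2% of those called higher and 15.5% of those called lower, and TATAA in 13.4%, 16.5% and 12.5%. These matches describe letters in a window and say nothing about binding.

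Other parietal cell genes did not follow the pump. Of 15 tested receptors, factors and trafficking genes 3 were called higher and 1 lower, with a median of 0.17. The fall was that of Cblif, which encodes intrinsic factor and is also on the chief cell list, so it is not particular to parietal cells here. It read 9.38, 9.03 and 9.66 on the wild-type and 8.51, 8.57 and 8.71 on the null arrays (-0.76 ± 0.16, limma adjusted p = 0.0123), with no overlap. Stx3, a syntaxin of apical membrane fusion (0.46 ± 0.12), Ndrg1 (0.62 ± 0.19) and the coactivator gene Ppargc1a (0.96 ± 0.29) were called higher in the fit of 6 arrays. With any of wild-type replicates 2 and 3 and null replicates 1 and 3 left out, none of these 3 was called, nor were Stx3 and Ndrg1 without wild-type replicate 1, with differences over these fits of 0.41 to 0.57, 0.41 to 0.85 and 0.69 to 1.24.

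Chief cell genes moved apart from each other. Clps, which encodes pancreatic colipase and is also on the pancreas list, read 11.01, 10.69 and 10.76 on the wild-type and 9.13, 8.93 and 8.88 on the null arrays, a difference of -1.84 ± 0.12 (limma adjusted p = 0.000274). Pgc, which encodes the zymogen progastricsin, read 7.93, 7.26 and 7.74 on the wild-type and 6.81, 6.32 and 6.63 on the null arrays, a difference of -1.06 ± 0.20 (limma adjusted p = 0.00861). Both fell without overlap, whereas Pga5, a pepsinogen gene, was called higher at 0.27 ± 0.08 (-0.0094 after quantile normalization) and Rab3d, of secretory granules, lower at -0.43 ± 0.13. With any of wild-type replicates 1 and 3 and null replicates 1 and 3 left out, neither Pga5 (0.23 to 0.33) nor Rab3d (-0.52 to -0.31) was called, and Pga5 was not without null replicate 2 nor Rab3d without wild-type replicate 2. The chief cell factor gene Bhlha15 stood at -0.55 ± 0.18 and did not pass. Of 8 tested members 4 were called lower and 1 higher, with a median of -0.49.

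Mucous and endocrine cell genes that passed the filter showed small differences. Of 18 tested mucous genes 4 were called higher and 2 lower, with a median of 0.24. The rises were those of the gastrokine gene Gkn2 (0.29 ± 0.09), the trefoil gene Tff1 (0.27 ± 0.08), Anxa10 (0.25 ± 0.08) and the cathepsin gene Ctse (0.23 ± 0.07), and after quantile normalization 0 of the list were called higher, its median was 0.0072 and Gkn2 stood at -0.0089. In the deposited values Psca (-0.74 ± 0.17) and the tight junction gene Cldn18 (-0.51 ± 0.15) were called lower. None of these 6 calls was made on leaving out wild-type replicate 1, wild-type replicate 3 or null replicate 3, and the leave-one-out count ran from 0 to 1 higher and 0 to 2 lower. The calls of Gkn2, Anxa10 and Ctse were lost whichever array was left out (leave-one-out differences of 0.22 to 0.33 for Gkn2), that of Tff1 with either of the other null arrays left out (0.21 to 0.33), and that of Cldn18 with null replicate 2 left out (-0.62 to -0.39). The mucin gene Muc5ac lay under the filter and is named after its values were seen. It read 3.77, 4.08 and 3.80 on the wild-type and 5.04, 5.58 and 5.78 on the null arrays. Tested without the filter its difference was 1.58 ± 0.27 (limma adjusted p = 0.0141), a size that is only bounded. Of 12 tested endocrine genes none was called by limma, with adjusted p of 0.0695 or more and 2 with an unadjusted p under 0.05. Neurog3, the factor that specifies endocrine cells, stood at 0.65 ± 0.23 and Neurod1 at 0.45 ± 0.16. The other 10 endocrine genes measured, Gast of gastrin cells among them, lay under the filter.

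Most factors that pattern the gut tube and its epithelium did not pass. Of 20 tested regional and epithelial factors 5 were called higher and 1 lower, with a median of 0.17. That is 30% called, beside 22.1% of all genes. Trp63, the factor of squamous basal cells, read 8.74, 8.69 and 8.28 on the wild-type and 9.51, 9.17 and 9.40 on the null arrays (0.79 ± 0.15, limma adjusted p = 0.00915). Klf4 (0.60 ± 0.12) and Ehf (0.94 ± 0.17), factors of epithelial differentiation, rose too. Pitx1, a homeobox gene, fell (-0.71 ± 0.12, limma adjusted p = 0.00685). Tead1 (0.73 ± 0.16) and Grhl2 (0.61 ± 0.15) were called higher but lost the call without wild-type replicate 3 or null replicate 1, and Grhl2 also without wild-type replicate 2 or null replicate 3, with ranges of 0.67 to 0.81 and 0.52 to 0.73. Sox2 (-0.29 ± 0.16), Gata6 (-0.17 ± 0.12) and Foxa2 (-0.20 ± 0.11) did not pass, and Cdx1 and Cdx2, of the intestine, lay under the filter.

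Squamous forestomach genes moved in both directions, more of them up. Of 27 tested members 12 were called higher and 5 lower, with a median of 0.43. The keratin of suprabasal cells Krt4 read 10.74, 10.98 and 11.04 on the wild-type and 11.93, 11.72 and 11.36 on the null arrays (0.75 ± 0.15, limma adjusted p = 0.00985). Repetin, encoded by Rptn, read 9.34, 9.67 and 9.84 on the wild-type and 11.13, 10.83 and 10.32 on the null arrays (1.14 ± 0.20, limma adjusted p = 0.00719). Null arrays lay above all wild-type arrays for both. Krtdap (0.65 ± 0.12), of differentiating keratinocytes, and the desmosome and adhesion genes Dsc3 (1.08 ± 0.18) and Perp (0.69 ± 0.12) rose as well.

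Keratins known from the basal layer were lower. Krt15 read 10.53, 10.60 and 10.32 on the wild-type and 9.46, 9.97 and 9.75 on the null arrays (-0.76 ± 0.14, limma adjusted p = 0.00837), and the galectin gene Lgals7 read 9.20, 8.67 and 9.04 on the wild-type and 7.62, 7.38 and 7.53 on the null arrays (-1.46 ± 0.15, limma adjusted p = 0.00119), each without overlap. Krt5 (-0.57 ± 0.12) and Krt14 (-0.77 ± 0.15), the basal keratin pair, were called lower and are named here after their values were seen; Krt5 was not called without null replicate 3 (-0.69 to -0.49). Trp63 of the same layer rose, as given above. The list had 3 called higher and 3 lower with Alb as a covariate.

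**Figure D3:**
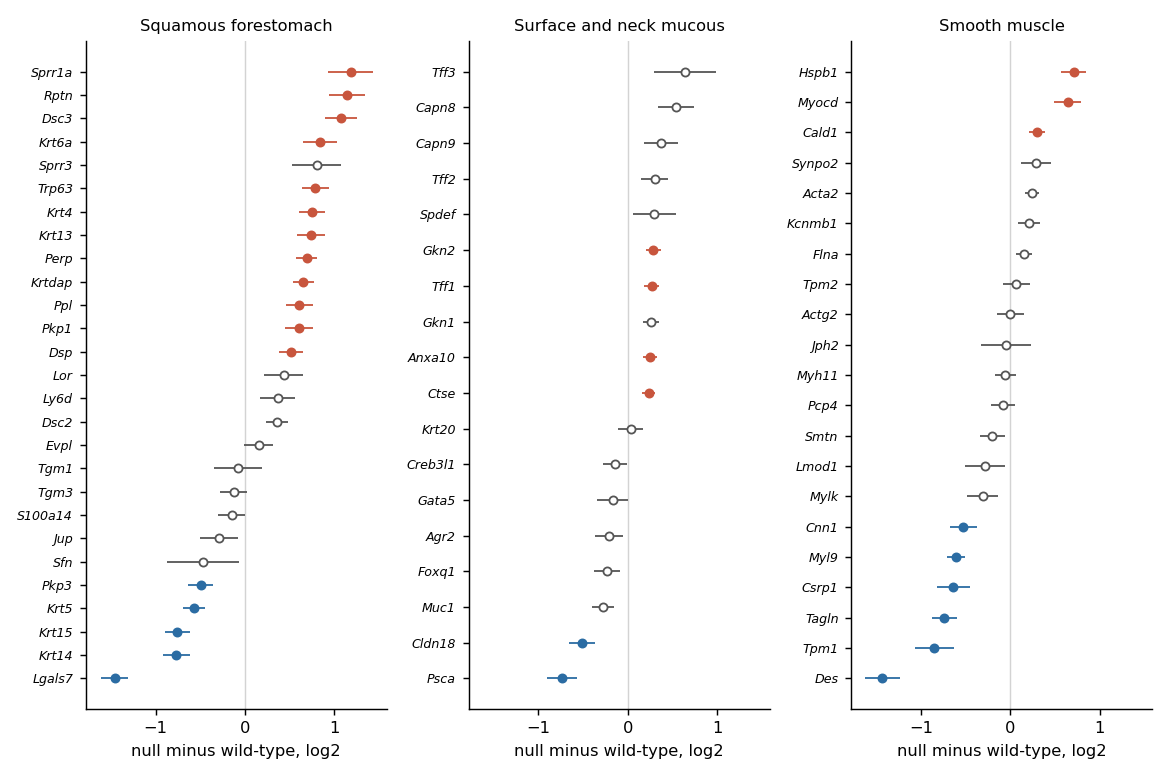
Null minus wild-type difference (log2, points) with its standard error (bars) for each tested member of the squamous forestomach, mucous and smooth muscle lists. Filled points were called at adjusted p under 0.05 (red higher, blue lower in null stomach) and open points were not; in the squamous panel Krt4 and Rptn lie right of 0 and Krt15 and Lgals7 left of it.

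Keratins and junctions of glandular epithelium moved both ways. Of 27 tested members 4 were called lower and 3 higher, with a median of 0.22. Krt19, a keratin of simple epithelia and mesothelium, read 10.93, 10.77 and 10.71 on the wild-type and 9.50, 9.98 and 9.88 on the null arrays (-1.02 ± 0.13, limma adjusted p = 0.00272), and the laminin chain gene Lamb3 fell too (-0.60 ± 0.13). The tight junction genes Cldn23 (1.36 ± 0.23) and Ocln (0.91 ± 0.19) rose, without overlap.

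Some smooth muscle genes were lower and others were not. Of 21 tested members 6 were called lower and 3 higher, with a median of -0.06. Des, which encodes desmin, read 7.54, 8.25 and 7.87 on the wild-type and 6.65, 6.46 and 6.24 on the null arrays (-1.44 ± 0.19, limma adjusted p = 0.00289), with all null arrays below all wild-type arrays. Myl9, a myosin light chain gene (-0.61 ± 0.10), and Tagln (-0.74 ± 0.14), which binds actin, fell as well, whereas Hspb1, a small heat shock protein gene, rose (0.71 ± 0.14). The heavy chain Myh11 (-0.06 ± 0.12) and Acta2 (0.24 ± 0.08), the actin of this muscle, did not pass and are named after their values were seen. Myocd, the coactivator that drives the type, was called higher (0.64 ± 0.15) but not without wild-type replicate 2 or null replicate 1 or 3 (0.55 to 0.78).

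Among the other cell types of the wall, 24.3% of fibroblast and matrix genes and 25% of mesothelial genes were called, beside 22.1% of all genes, and smaller shares of endothelial, leukocyte, neuronal, glial and mast cell genes. Of 37 tested fibroblast and matrix genes 6 were called lower and 3 higher, with a median of 0.00. Collagen Col3a1 (0.38 ± 0.07) and the pericyte receptor Pdgfrb (0.86 ± 0.17) rose and Mfap2, of microfibrils, fell (-0.94 ± 0.18). Of 18 endothelial genes 3 were higher, and of 21 leukocyte genes 2 were higher and 1 lower, among them the macrophage receptor Cd163 (1.27 ± 0.22). Of 20 enteric neuron genes 1 was higher and 1 lower, and of 7 glial genes Erbb3 rose (0.78 ± 0.13). Of 8 mesothelial genes Krt19 fell and Upk3b was called lower (-1.66 ± 0.48; -2.29 to -1.12 with an array left out, and called without null replicate 2 only), with a list median of -0.88. Of the 8, 6 had an unadjusted p under 0.05, and 6 were called lower without null replicate 2 against 1 without any other array. Of 4 mast cell genes none was called by limma, with adjusted p of 0.0884 or more and 1 with an unadjusted p under 0.05.

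Transcripts of milk were called lower in every tested member, and most were far lower on null arrays. Wap, whey acidic protein, read 9.20, 10.06 and 10.24 on the wild-type and 5.38, 6.88 and 5.26 on the null arrays (-3.99 ± 0.42, limma adjusted p = 0.00119). Csn2, beta-casein, read 9.94, 10.03 and 10.42 on the wild-type and 5.21, 8.06 and 5.73 on the null arrays (-3.80 ± 0.60, limma adjusted p = 0.00491). Csn3, kappa-casein, read 8.09, 8.37 and 8.68 on the wild-type and 5.16, 6.13 and 4.73 on the null arrays (-3.04 ± 0.32, limma adjusted p = 0.00119). Null replicate 2 lay above the other null arrays for all 3 genes and still below every wild-type array. Csn1s1 (-2.61 ± 0.46) and Wfdc18 (-2.73 ± 0.58) fell too.

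All 7 tested milk genes were called lower, with a median of -3.04. Csn1s2a was called at -7.15 ± 1.61, a size that is not measured, since null replicates 1 and 3 read 0.82 and 1.49, under the filter. With signals floored at 5 its difference was -4.59, and that of Csn1s2b -0.94. Csn1s2a and Csn1s2b, called at -1.11 ± 0.33 with groups that overlapped, had unstable calls: without null replicate 1 or 3, and for Csn1s2a without wild-type replicate 2, they were not called (-9.54 to -5.79 and -1.46 to -0.89). Summed on the linear scale, the 9 measured milk genes, which include Glycam1 and Lalba, gave 3907 to 7263 on wild-type and 229 to 1212 on null arrays. Glycam1, a milk mucin, and Lalba, alpha-lactalbumin, had means under the filter and were not tested. Glycam1 read 7.60, 8.29 and 8.83 on the wild-type and 1.43, 4.95 and 0.46 on the null arrays. Milk transcripts come from the mammary gland, and no label gives how much milk each stomach held; its part in these values was not tested.

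Hepatocyte transcripts varied widely within the wild-type group. Of 14 tested members 2 were called lower and none higher, with a median of -1.47. Without wild-type replicate 1, 9 were called lower, and without wild-type replicate 2 or 3 none was. The median turned to 0.063 without both of the latter arrays and to 0.078 with Alb as a covariate. Afp, alpha-fetoprotein, read 8.01, 9.61 and 10.97 on the wild-type and 6.43, 3.57 and 7.28 on the null arrays (-3.77 ± 0.95) and was not called without wild-type replicate 2 or 3 (-4.53 to -2.67). Ambp read 5.04, 6.54 and 8.89 on the wild-type and 4.04, 4.41 and 4.44 on the null arrays (-2.53 ± 0.77) and was not called without null replicate 1, 2 or 3 (-3.42 to -2.40), and it lay under the filter in 2 further fits. The summed linear level of the list was 3633, 7485 and 23392 on the wild-type arrays and 2636 to 4493 on the null arrays. The highest sums were on the 2 arrays of highest Alb. The part of liver RNA in the wild-type values of other genes was not tested beyond the fits above.

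Skeletal muscle and pancreas lists moved in a few members. Ckm, the muscle creatine kinase, fell (-1.19 ± 0.19, limma adjusted p = 0.00486) among 7 tested skeletal muscle genes of which 2 were called lower, and 10 more lay under the filter. Acta1 was called lower (-1.26 ± 0.38) but kept the call without null replicate 2 only (-1.72 to -0.99). Of 6 tested pancreas genes Clps fell, and Spink1, a trypsin inhibitor also made by other epithelia, was called higher (1.43 ± 0.33; not without wild-type replicate 2 or null replicate 1 or 3, 1.15 to 1.74). The other 12 pancreas genes lay under the filter.

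Genes of cell division were lower on null arrays as a body. Of 40 tested DNA replication genes 30 were called lower and none higher, with a median of -0.84. Of 47 mitosis genes 39 were called lower and none higher, with a median of -0.72. Mki67, the proliferation antigen, read 9.62, 9.83 and 9.89 on the wild-type and 8.29, 8.75 and 8.21 on the null arrays (-1.36 ± 0.16, limma adjusted p = 0.0016). Mcm5, a subunit of the replicative helicase, read 6.40, 6.64 and 6.46 on the wild-type and 4.11, 4.97 and 4.28 on the null arrays (-2.05 ± 0.24, limma adjusted p = 0.00172), so its null values lay under the filter and bound the change. Null arrays were below all wild-type arrays for both genes.

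Further members of both lists fell. The ribonucleotide reductase gene Rrm2 (-1.25 ± 0.22) and the replication factors Mcm3 (-1.51 ± 0.27) and Rpa2 (-1.17 ± 0.21) fell. The mitotic kinases Aurkb (-1.04 ± 0.12) and Cdk1 (-1.06 ± 0.16), survivin Birc5 (-1.19 ± 0.14), the ubiquitin carrier Ube2c (-1.34 ± 0.17) and the condensin subunit Ncapd2 (-0.93 ± 0.12) were lower as well. With each array left out in turn 16 to 32 replication genes and 23 to 39 mitosis genes were called lower, and 15 and 19 passed in all 6 such fits. With Alb as a covariate 3 and 10 were called lower. Of 17 inhibitors of the cycle 4 were called lower, among them Cdkn2d (-0.89 ± 0.16) and Rbl1 (-0.95 ± 0.19), and 1 higher.

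Mitochondrial genes were lower in part. Of 33 tested complex I genes 13 were called lower and none higher (median -0.29), and of 41 genes of complexes II to V 14 were lower and 2 higher (median -0.24). Ndufb9, a complex I subunit, read 10.34, 10.47 and 10.50 on the wild-type and 9.81, 9.74 and 9.56 on the null arrays (-0.73 ± 0.10, limma adjusted p = 0.00331). Uqcrc1, a core protein of complex III, read 9.68, 9.64 and 9.74 on the wild-type and 8.73, 8.88 and 8.35 on the null arrays (-1.03 ± 0.14, limma adjusted p = 0.00306). Neither gene's groups overlapped. Ndufs5 (-1.04 ± 0.16) and the ATP synthase subunits Atp5g1 (-0.86 ± 0.16) and Atp5a1 (-0.60 ± 0.12) fell as well. Without 1 array 7 to 13 complex I genes were called lower, and with Alb as a covariate 3.

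Genes of the mitochondrial ribosome and of fuel oxidation were called lower in part. Of 66 mitochondrial ribosome genes 18 were called lower (median -0.24), among them Mrpl12 (-1.74 ± 0.22). Of 22 tricarboxylic acid cycle genes 7 were lower, among them Ogdh (-0.98 ± 0.11) and Idh2 (-0.98 ± 0.16). Of 30 fatty acid oxidation genes 10 were lower and 4 higher. Fabp3, the heart-type fatty acid carrier, read 7.44, 7.56 and 8.16 on the wild-type and 5.10, 5.60 and 4.83 on the null arrays (-2.54 ± 0.24, limma adjusted p = 0.000956), and Etfb, which passes electrons to the chain, fell by less (-1.19 ± 0.13). Pdk4, the kinase that shuts pyruvate dehydrogenase, read 7.45, 7.09 and 6.89 on the wild-type and 9.82, 9.11 and 9.86 on the null arrays (2.45 ± 0.22, limma adjusted p = 0.000771), and the peroxisome gene Pex11a rose (0.92 ± 0.13). Groups did not overlap for these 4 genes.

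Glycolysis and lipid synthesis genes were called lower where they were called. Of 16 glycolysis genes 6 were lower, and Pfkl, the liver-type phosphofructokinase, read 9.57, 9.62 and 9.92 on the wild-type and 8.23, 8.35 and 8.31 on the null arrays (-1.41 ± 0.12, limma adjusted p = 0.000771). Brain-type creatine kinase Ckb (-0.81 ± 0.10) and the mitochondrial form Ckmt1 (-0.74 ± 0.12) fell. Of 14 fatty acid synthesis genes 5 were lower, among them the desaturases Fads2 (-1.84 ± 0.27) and Scd1 (-1.76 ± 0.23) as well as Thrsp (-1.41 ± 0.23) and the synthase Fasn (-1.10 ± 0.19). Scd1 read 8.05, 8.91 and 8.95 on the wild-type and 6.76, 6.96 and 6.92 on the null arrays, so its groups stood apart by more than 1 log2 unit. Of 18 cholesterol synthesis genes 6 were lower, among them Fdps (-1.81 ± 0.22), with Dhcr7 at -0.76 ± 0.15.

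Most nuclear receptors and coactivators did not pass. Of 25 tested members 6 were called higher and 1 lower, with a median of 0.25. That is 28% called, beside 22.1% of all genes. Rora, a circadian receptor, read 6.07, 5.95 and 5.81 on the wild-type and 7.27, 6.84 and 7.33 on the null arrays (1.20 ± 0.17, limma adjusted p = 0.0031) and Nr2f6 read 7.57, 7.46 and 7.82 on the wild-type and 6.91, 6.98 and 6.77 on the null arrays (-0.73 ± 0.14, limma adjusted p = 0.00862), each without overlap. The bile acid receptor Nr1h4 (0.76 ± 0.18) was called but not without wild-type replicate 2 or null replicate 1 (0.61 to 0.85), and the thyroid hormone receptor Thrb (0.60 ± 0.17; 0.52 to 0.68) and corepressor Nrip1 (0.48 ± 0.14; 0.41 to 0.63) kept their calls without null replicate 2 only. Esrra, the sister receptor, was -0.02 ± 0.21 and did not pass, and Esrrb and Ppara lay under the filter. Esrrg itself had 1 dim probe set reading 6.01, 5.93 and 6.03 on the wild-type and 6.56, 6.39 and 6.49 on the null arrays (0.49 ± 0.13, limma adjusted p = 0.0312), and of the 6 fits with an array left out only that without null replicate 2 called it (0.45 to 0.54). Where this probe set lies relative to the deletion is unknown here, and its value checks no label.

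Glucocorticoid-responsive genes were higher on null arrays as a group. Of 22 tested members 17 were called higher and none lower, with a median of 1.02. Klf9, a factor induced by glucocorticoid, read 9.92, 9.82 and 9.54 on the wild-type and 11.89, 11.36 and 11.84 on the null arrays (1.94 ± 0.16, limma adjusted p = 0.000638). Cebpd, a factor of the acute phase, read 7.82, 6.97 and 7.64 on the wild-type and 10.13, 9.48 and 10.35 on the null arrays (2.51 ± 0.26, limma adjusted p = 0.00119). Tsc22d3, which encodes the protein GILZ, read 7.70, 7.65 and 7.57 on the wild-type and 9.43, 8.42 and 9.44 on the null arrays (1.46 ± 0.25, limma adjusted p = 0.00634). Null replicate 2 was the lowest null array for all 3 genes and lay above every wild-type array. Without 1 array 12 to 18 were called higher, 12 in all 6 such fits, and 6 with Alb as a covariate.

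Part of the low insulin, immediate early and clock lists rose, and no member of the 3 lists was called lower. Of 20 FoxO-linked genes 7 were called higher and none lower (median 0.43). Fbxo32, a ubiquitin ligase of muscle wasting, read 7.76, 7.28 and 6.70 on the wild-type and 9.94, 9.19 and 9.94 on the null arrays (2.44 ± 0.28, limma adjusted p = 0.00164), and Foxo3 (1.07 ± 0.18), Sesn1 (1.31 ± 0.26) and Trp53inp1 (2.25 ± 0.43) rose. Of 29 immediate early genes 14 were higher and none lower (median 0.59), among them Fos (1.44 ± 0.22), Klf6 (1.39 ± 0.18) and Egr1 (0.78 ± 0.17). Of 14 circadian genes 6 were higher and none lower, with Per1 (0.70 ± 0.14) and the protease gene Usp2 (from 6.55 ± 0.13 to 7.55 ± 0.42, wild-type to null mean ± SD, n = 3) as examples. In leave-one-out fits 4 (without wild-type or null replicate 3) to 11 (without null replicate 2) FoxO-linked, 7 to 15 immediate early and 2 to 6 circadian genes were called higher.

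Stress lists differed in their shares. Called were 37.5% of oxidative stress, 31.8% of hypoxia and 27.8% of p53 target genes, beside 22.1% of all genes. Of 24 oxidative stress and metallothionein genes 7 were higher and 2 lower, and Nqo1, a quinone reductase, read 8.13, 8.16 and 8.06 on the wild-type and 8.90, 8.89 and 8.98 on the null arrays (0.81 ± 0.10, limma adjusted p = 0.0023). Mt1 (1.09 ± 0.22) and Mt2 (0.72 ± 0.12) rose. Of 18 p53 targets 5 were higher. Of 22 hypoxia genes 3 were higher and 4 lower, among them Ldha (-0.73 ± 0.13) and the carbonic anhydrase Car12 (-0.90 ± 0.19). Of 15 interferon response genes none was called by limma, with adjusted p of 0.126 or more and 1 with an unadjusted p under 0.05.

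Protein handling genes were called lower more often than higher, apart from ribosomal proteins. Of 30 endoplasmic reticulum chaperone and stress genes 12 were called lower and 1 higher, with a median of -0.29. Calr, calreticulin, read 10.78, 10.92 and 10.84 on the wild-type and 9.93, 10.09 and 9.94 on the null arrays (-0.86 ± 0.09, limma adjusted p = 0.00122), and Dnajb11 (-1.09 ± 0.12) and Pdia6 (-1.02 ± 0.16) fell too. Of 33 proteasome genes 12 were lower and none higher, with Psmd4 at -0.94 ± 0.12 and Psmb7 at -1.88 ± 0.26. Of 34 nucleolar genes 9 were lower and 1 higher, including nucleolin Ncl (-1.02 ± 0.14). Of 53 splicing factors 9 were lower and 2 higher, including U2af1 (-0.96 ± 0.11). That is 20.8% of splicing factors called, near the 22.1% of all genes, with a median of -0.05. Of 41 ribosomal protein genes 12 were higher and 1 lower, with Rps24 at 0.57 ± 0.08 and Rps9 at 0.57 ± 0.10, and without 1 array 3 to 15 were called higher. After quantile normalization 6 were higher and 4 lower, with a median of 0.028 in place of 0.19.

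Growth factor and signalling genes were called in both directions, more of them up. Of 44 Hedgehog, BMP, Wnt, Notch and FGF genes 7 were higher and 2 lower, so 20.5% were called beside 22.1% of all genes. Bmpr2, the type II BMP receptor, read 5.71, 5.43 and 5.13 on the wild-type and 7.35, 7.45 and 7.47 on the null arrays (from 5.42 ± 0.29 to 7.42 ± 0.06, wild-type to null mean ± SD, n = 3; limma adjusted p = 0.000771), with null arrays above all wild-type arrays, and Fgf7, a mesenchymal growth factor, rose (0.92 ± 0.16). Of 25 EGF and growth axis genes 6 were higher and 1 lower. Ereg, epiregulin, rose (1.06 ± 0.17), as did Errfi1, an inhibitor of the EGF receptor (1.67 ± 0.29), and the fall was Igfbp2, at 8.21, 9.05 and 9.09 on the wild-type and 6.65, 7.89 and 6.49 on the null arrays (-1.77 ± 0.37, limma adjusted p = 0.012).

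In the remaining lists the share called was above the 22.1% of all genes for carbonic anhydrase and bicarbonate genes (41.7%), heat shock genes (38.5%), amino acid response genes (34.8%) and most others, and below it for erythroid and lymphocyte genes. Of 24 potassium channel, sodium pump and related genes 4 were lower and 2 higher, of 12 carbonic anhydrase and bicarbonate genes 4 were lower and 1 higher, and of 16 genes of the vacuolar proton pump 2 moved each way. Of 3 tested genes of the interstitial cells of Cajal Ano1, their chloride channel, was called lower (-1.02 ± 0.32), and their receptor gene Kit did not pass. The call of Ano1 was lost on leaving out any wild-type array or null replicate 1 (-1.23 to -0.61). Of 7 erythroid genes 1 was lower, of 7 adipocyte genes 1 moved each way, and the 1 tested lymphocyte gene was not called. Of 23 amino acid response genes 6 were higher and 2 lower, and 0 (without wild-type replicate 3) to 6 were called higher in leave-one-out fits. Of 18 aminoacyl-tRNA synthetases 4 were lower and 1 higher, with the valine enzyme Vars at -1.41 ± 0.23, and of 26 heat shock genes 7 were lower and 3 higher, with the chaperonin Hspd1 at -0.66 ± 0.13.

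**Figure D4:**
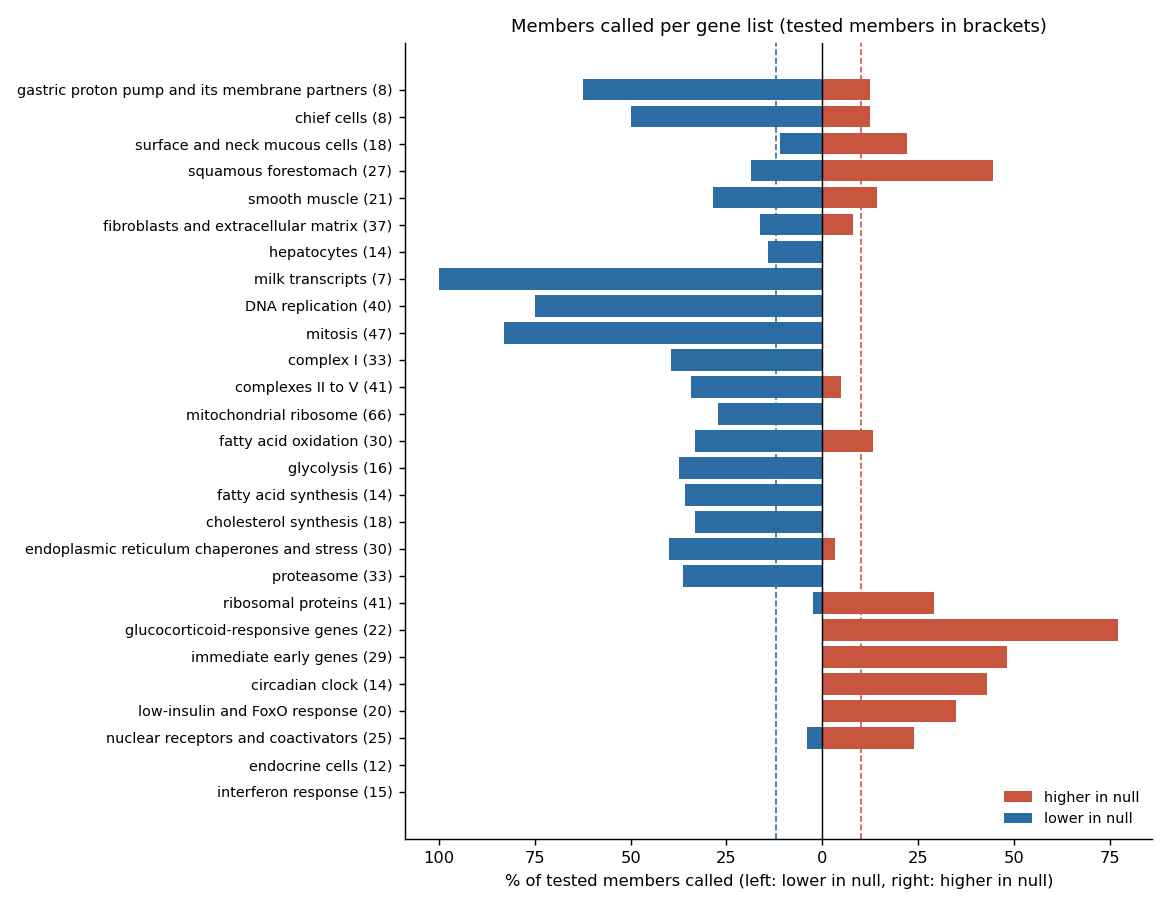
Percent of the tested members of selected gene lists called higher (red, right) or lower (blue, left) in null stomach at adjusted p under 0.05, with dashed lines at the shares of all 8505 genes (10.1% higher, 12.1% lower). Milk, mitosis and DNA replication lists lie furthest left and the glucocorticoid list furthest right; endocrine and interferon lists have no member called.

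The changes of largest size on the array also held genes outside these lists. Each is given at its probe set of largest difference that met the naming rule. Malat1 and Ceacam1 had 4 tested probe sets, Tmod3 and Atrx 3 and Pdlim5 5. Signs did not differ among a gene's tested probe sets, but sizes could. Malat1, a long nuclear RNA, read 8.76, 7.96 and 8.07 on the wild-type and 10.86, 10.42 and 10.62 on the null arrays (2.37 ± 0.21, limma adjusted p = 0.000771). The actin capping gene Tmod3 (1.79 ± 0.18), the chromatin remodeller Atrx (1.69 ± 0.15), the adhesion gene Ceacam1 (1.70 ± 0.25), the defensin gene Defb1 (1.79 ± 0.30), Pdlim5 (1.72 ± 0.28) and the small proline-rich gene Sprr2j-ps (1.92 ± 0.34) rose. D17H6S56E-5 (1.75 ± 0.49) was called without null replicate 2 and in no other fit with an array left out (1.28 to 2.44). Of falls, Gnb2, a G protein subunit, read 8.26, 8.32 and 8.24 on the wild-type and 5.23, 6.11 and 5.75 on the null arrays (-2.58 ± 0.21, limma adjusted p = 0.00063), and Pfn1, the actin monomer binder profilin, stood at -1.99 ± 0.15. The lipoprotein gene Apoe (from 7.95 ± 1.03 to 5.95 ± 0.29, wild-type to null mean ± SD, n = 3), the chaperonin subunit Cct7 (-1.93 ± 0.20) and thymidine kinase Tk1 (-2.14 ± 0.40) fell. Apoe read 7.02, 7.78 and 9.05 on the wild-type arrays, in the same order as Alb. Its difference was -1.20 with Alb as a covariate (limma adjusted p = 0.0654) and -1.07 without wild-type replicates 2 and 3. The part of liver RNA in it was not tested further. The other tested probe set of Cct7 fell by less (-0.57, limma adjusted p = 0.00716). Bub1b (-1.93 ± 0.47) was not called without any wild-type replicate or null replicate 1 (-2.51 to -1.36), nor Adi1 (-2.02 ± 0.44) without wild-type replicate 2 (-2.35 to -1.40).

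Some genes crossed the filter level, so that their differences are only bounded. Above it on all null and below it on all wild-type arrays were Ube3a, a ubiquitin ligase (4.80, 4.90 and 4.81 on the wild-type and 7.36, 6.87 and 7.11 on the null arrays), Tef, a clock output factor, at the dimmer of its probe sets (1.85 ± 0.17), Utrn, utrophin (1.69 ± 0.16), Plekha5 (1.63 ± 0.17), Maff (2.06 ± 0.41) and Sprr2i (1.82 ± 0.39). Below it on all null arrays were Fkbp8 (7.24, 7.11 and 7.20 on the wild-type and 5.06, 4.09 and 5.29 on the null arrays), Sppl2b (-2.07 ± 0.24), the selenocysteine elongation factor Eefsec (-1.94 ± 0.29), the phosphatase Ppp5c (-1.63 ± 0.18), Ntmt1 (-1.58 ± 0.19) and Btn1a1, a butyrophilin of milk fat (-1.49 ± 0.23). Slc38a4 (-1.50 ± 0.43) lost its call without wild-type replicate 2 or any null replicate (-1.93 to -1.40). In all 53 rises and 31 falls met this rule. The brighter probe set of Tef stood at 0.14 and was not called (limma adjusted p = 0.484). Ube3a, Utrn and Plekha5 also had 2 tested probe sets each, of which 1 is given.

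The stomach difference was set against the mean difference of the other 4 tissues in a fit over all 30 arrays. The control 3' minus 5' gap separated the genotypes in stomach only. It was 2.190 to 2.615 on null and 2.135 to 2.495 on wild-type brain arrays, and 2.210 to 2.415 and 2.230 to 2.680 in kidney. In liver it was 3.260 to 3.515 and 3.405 to 3.595, and in salivary tissue 2.425 to 2.805 and 2.605 to 3.010. The part of RNA degradation in the results of this fit was not tested. Of 13576 probe sets 10.4% were called, 4.32% higher and 6.11% lower in stomach, and of genes 3.05% and 5.77%. Leaving out each of the 6 stomach arrays gave 686 (without null replicate 1) to 1502 called probe sets in place of 1416, and 520 held in all. Xist was low on null replicate 1 and wild-type replicate 3 in all 5 tissues, so same-numbered arrays of a genotype may share an animal, and a fit with that number within genotype as a block gave 1614. The Atp4a difference in stomach minus that elsewhere was -4.89 ± 0.20 (limma adjusted p = 3.99e-15), and that of Atp4b -4.74 ± 0.49 (limma adjusted p = 6.01e-07). The Atp4a differences in brain, kidney, liver and salivary tissue were -0.18, -0.24, 0.00 and -0.16. Slc4a2 (-1.60 ± 0.16) and Kcnq1 (-1.33 ± 0.37) were also called lower, so 4 of 8 tested pump list members were.

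Cell division, milk and liver lists were called here too. Of 47 mitosis genes 10 were lower in stomach than in the mean of the other 4 tissues, among them Mki67 (-1.15 ± 0.20). Of 40 replication genes 8 were lower and 1 higher, and of 7 milk genes 6 were lower. Such a departure is from the mean and not from each tissue. Bub1b stood at -1.93 in stomach and -1.95 in salivary tissue, and Tk1 at -2.14 and -2.07. Of 14 hepatocyte genes 6 were lower, with Alb at -3.15 ± 0.87 (limma adjusted p = 0.0206). This fit shares 1 estimate of spread per probe set over all tissues. Within stomach Alb overlapped between genotypes and was not called (-2.67 ± 1.21, limma adjusted p = 0.136). Without wild-type replicates 2 and 3 its stomach difference was 0.76. Of 41 ribosomal protein genes 7 were higher and 1 lower. The rises of Malat1 (2.34 ± 0.30), Ube3a (2.52 ± 0.30), Bmpr2 (2.11 ± 0.37), Tmod3 (1.96 ± 0.21), Plekhh1 (2.11 ± 0.41) and 6820431F20Rik (1.89 ± 0.24) were called as larger in stomach.

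Few glucocorticoid-responsive genes were called in this test. Of 22 tested members 1 was called higher and 2 lower in stomach than in the mean of the other tissues. Within stomach 17 were called higher. Cebpd differed by 1.42 in brain, 2.43 in kidney, 1.82 in liver and 2.67 in salivary tissue, and its stomach excess was 0.42 ± 0.47 (limma adjusted p = 0.634). Of 14 circadian genes 1 was called higher, and of 29 immediate early genes 2 were. A difference that misses the threshold here does not show equal effects.

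**Figure D5:**
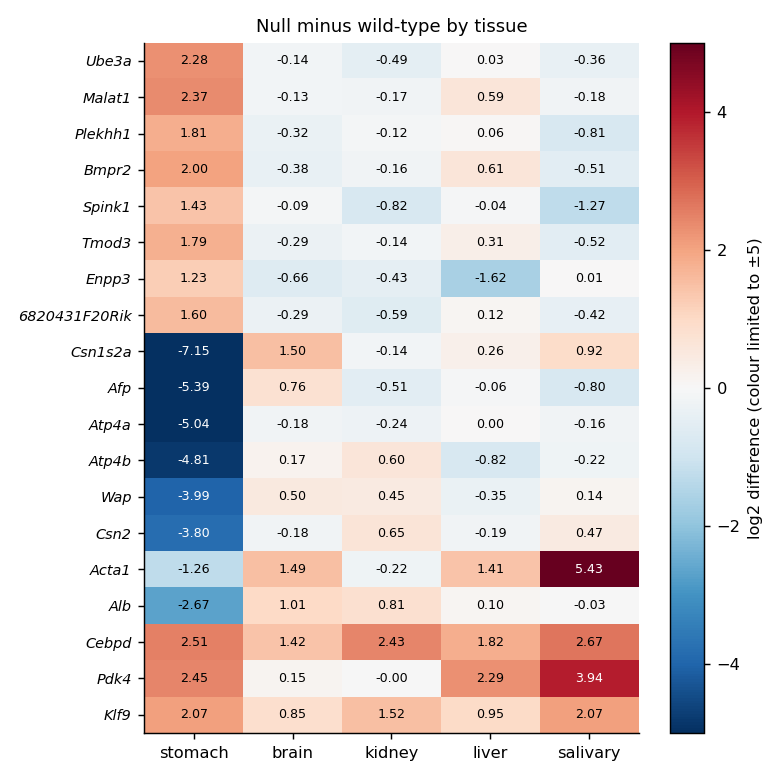
Null minus wild-type difference (log2) in each of 5 tissues for the 8 genes with the largest positive and 8 with the largest negative called stomach excess, and for 3 genes with large stomach rises (Cebpd, Pdk4, Klf9), which were called in no such excess at these probe sets; colour is limited to ±5. Atp4a reads -5.04 in stomach and between -0.24 and 0.00 elsewhere, the size of the Csn1s2a fall rests on 2 null values under the filter, and Cebpd is above 1 in all 5 tissues.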

How the data were processed

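Log2 signals of 30 Affymetrix MOE430A arrays were used as deposited. The submitters' processing notes name MAS5, with its version not given in the sources used here, and the deposited log2 values had been scaled so that the trimmed mean of their linear values (2% off each end) was close to 150 on every array (149.988 to 150.008). Of 22690 probe sets 64 controls were left out. Of the rest 20380 had 1 gene symbol in the platform annotation, 691 several and 1555 none, and these 2 kinds were never named. Probe sets with a mean over the 6 stomach arrays of at least 5.35 (40th percentile) were tested with limma 3.58.1 in R 4.3.3 (lmFit, eBayes with a mean-variance trend), a procedure tested on simulated data, with Benjamini-Hochberg adjustment. The stomach difference was set against the mean of the other 4 tissues in 1 fit over 30 arrays and 10 groups. Python 3.11.15, numpy 2.4.6, pandas 2.3.3 and matplotlib 3.10.9 made the lists, tests and plots. The number of arrays limits the precision.

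Groups and replicate numbers came from the sample titles. Same-numbered null and wild-type arrays did not deviate together (r = -0.02, -0.01 and 0.01), so numbers were not taken as pairs. The 58 gene lists held 1583 names, of which 1416 were measured, and a gene's brightest probe set stood for it in these lists. Genes named by size are given at the probe set of largest difference that met the rule. Their other tested probe sets had the same sign. The lists and the choice of this comparison were made with earlier results of these data known. Named genes were up to 15 rises and 15 falls of largest size among called genes without overlap and with both means above the filter, up to 8 each way that crossed the filter level, up to 8 of each list by smallest adjusted p (any member of the pump, regional factor, nuclear receptor and milk lists), up to 8 each way in the comparison with other tissues, and the check genes; other genes are said to be named after their values were seen. Alternatives changed the filter, scaling, floor, samples, block, variance trend, weights, threshold and covariates. The Xist covariate and the block across tissues were added after seeing the data.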

Additional observations from a re-analysis of the deposited data

Results flagged for a closer look

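In these genes the null minus wild-type difference of stomach departed from the mean difference of the other 4 tissues by the limma test of that difference (adjusted p under 0.05). Values are the stomach difference minus the mean of the others on the log2 scale. The causes were not tested.

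Lower in stomach were the acid secretion genes Atp4a (-4.89), Atp4b (-4.74), Slc4a2 (-1.60) and Kcnq1 (-1.33). The milk genes Wap (-4.18), Csn2 (-3.98), Wfdc18 (-2.68), Csn1s1 (-2.44) and Btn1a1 (-1.83) were lower too, as was Csn1s2a (-7.79), whose size is not measured because 2 null values lie under the filter; with signals floored at 5 it was -4.59. So were the liver genes Afp at 1 probe set (-5.24), Alb (-3.15) and Apoe (-2.29). Within stomach Alb overlapped between genotypes and was not called (limma adjusted p = 0.136). The skeletal actin gene Acta1 stood at -3.29, with a salivary difference of 5.43 beside the stomach difference of -1.26.

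Genes of cell division among them were Tk1 (-1.43), Bub1b (-1.22) and Mcm5 (-1.50). These fell in salivary tissue too, so their departure is from the mean and not from each tissue. Tk1 stood at -2.14 in stomach and -2.07 in salivary tissue, Bub1b at -1.93 and -1.95, and Mcm5 at -2.05 and -1.40. Further genes lower in stomach were Gnb2 (-2.70), Fkbp8 (-2.11), Eefsec (-1.92), Cct7 at 1 probe set (-1.88), Sppl2b (-1.84), Adi1 (-1.84), Pfn1 (-1.75), Ntmt1 (-1.71) and Ppp5c (-1.58).

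Higher in stomach were Ube3a (2.52), Malat1 (2.34), Plekhh1 (2.11), Bmpr2 (2.11), Spink1 (1.98), Tmod3 (1.96) and 6820431F20Rik (1.89). The remaining ones were D17H6S56E-5 (1.82), Atrx (1.81), Ceacam1 (1.71), Plekha5 (1.68), Pdlim5 (1.61), Utrn (1.56), Tef at its dimmer probe set (1.54), Defb1 (1.52) and Fbxo32 (1.45). Ceacam1 was 1.29 in brain and -1.34 in liver. Fbxo32 rose in liver too, at 2.17 beside 2.44 in stomach, and stood at 0.74 in kidney, 0.74 in salivary tissue and 0.32 in brain.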

How the results depend on the processing

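The stomach count of 3186 called probe sets was 2517 to 3801 under no filter (2686), the higher filter, quantile normalization, equal medians, the floor, 30 arrays, no trend, array weights and Xist as a covariate. It was 885 at adjusted p under 0.01, 504 with Alb and 2 with the Gapdh gap as a covariate, 28 without wild-type replicates 2 and 3, and 1461 to 3601 without 1 array. The count against other tissues, 1416, was 2481 with array weights, 686 to 1502 without 1 stomach array, and 1039 without brain. With the replicate number as a block the counts were 2474 and 1044. Same-numbered null and wild-type arrays did not deviate together. Within a genotype, Xist followed the number in all 5 tissues, and same-numbered stomach and other arrays correlated at -0.066 to 0.21; that number as a block across tissues gave 1614 and changed no call of a named gene. Leaving out arrays can lower a count through the smaller sample alone, and so can a covariate that moves with the genotype, as the Gapdh gap did. Apart from that the cause was not tested.

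Directions turned for Pga5 (-0.0094), Gkn2 (-0.0089) and Acta2 (-0.028) after quantile normalization, and for Tef at its brighter probe set (-0.21), Tff1 (-0.034), H2-K1 (0.080), Aqp4 (0.26) and Myh11 (0.042) with the Gapdh gap as a covariate. Alb stood at 0.76 without wild-type replicates 2 and 3. Without 1 array Myh11 ran from -0.16 to 0.065 and Esrra from -0.23 to 0.13, and with array weights Esrra stood at 0.033. The control gap differed by 1.18 for Gapdh and 1.09 for Actb alone. Signals near or under the filter level limit what can be read of dim genes.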
